A study of Mus musculus and Homo sapiens with 12 samples.

Results

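Lipoprotein assembly and uptake were followed through 10 genes in pancreatic ductal carcinoma samples, described by the protocols as liver tumours. The members were chosen by gene symbol, matched in capitals, from a fixed list of APOB, MTTP, APOE, APOC1, APOD, CLU, LRP1, VLDLR, LPL and SCARB1. All 10 were among the 23201 genes of the mouse KPC table, and 8 were among the 18190 genes of the human PANC1 table, where no row carried the symbol APOB or LPL. The list was drawn up with the fold changes and adjusted p-values of both tables known, so those values are given as a description.

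RNA was sequenced from 12 samples in 4 groups of 3 biological replicates. KPC LM2 is a mouse pancreatic ductal carcinoma line that went through 2 generations of in vivo selection for growth in the liver, and KPC is the line it was derived from. PANC1 LM3 is a derivative of the human pancreatic ductal carcinoma line PANC1 after 3 generations of such selection, and PANC1 is the parental line. In all 4 groups 500000 cells were given by injection to the spleen at day 1, liver tumours were harvested at day 21, and the labels give the genotype as WT, with no allele, drug or transgene named. Neither the host's strain nor whether a selected line is 1 clone is given in the sources used here. The sample titles name cells while the protocols name tumours, so host cells may be part of what was sequenced. Each model came as 1 table of the authors' own comparison, with no value per library, so neither the depth nor the spread of single libraries can be shown. The level given below, the mean count, is the authors' normalised count averaged over the libraries of both groups of a model. The fold changes are on the log2 scale, with the standard error (SE) that the authors listed after the ± sign. Which group is the numerator is not stated in either table, so a fold change is only called positive or negative here, and no direction is given for a selected or a parental line. A gene was counted as called where the adjusted p of the authors' Wald test was under 0.05.

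Lipoproteins are particles of lipid and protein that carry cholesterol and triglyceride between cells. Apolipoprotein B (APOB) is the scaffold of the large particles made by liver and intestine, and the microsomal triglyceride transfer protein (MTTP) loads lipid onto it in the endoplasmic reticulum. Apolipoproteins E and C1 (APOE, APOC1) move between particles, while apolipoprotein D (APOD, a lipocalin) and clusterin (CLU, also called apolipoprotein J) are secreted carriers made by many tissues. Particles are taken up by LRP1 and VLDLR of the LDL receptor family, SCARB1 takes cholesterol ester out of HDL, and lipoprotein lipase (LPL) releases fatty acids from triglyceride-rich particles.

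The KPC samples held abundant Apob RNA beside almost no albumin RNA. In the authors' deposited table the mean count was 9008.6 for Apob, which ranked 68 of 23201 genes, and 10.4 for Alb, the main secreted protein of hepatocytes. Per kilobase of exonic length, with lengths of 13934 bases for Apob and 2342 bases for Alb, the levels were 646.5 and 4.46, so the level of Apob was 145.0 times that of Alb. On coding length the ratio of the levels was 116.6. Other hepatocyte genes were mostly as low as Alb: the 21 of 27 hepatocyte markers with a row had a median level of 3.4 per kilobase, against 646.5 for Apob. The marker lists here and below mix human and mouse symbols, so a symbol without a row gives no level. Of these markers Alb, Fgb and Apoa1, secreted by hepatocytes in large amounts, had mean counts of 10.4, 6.52 and 4.17 in the authors' deposited table. Ttr, of the same list, was higher than Alb there at 26.7, or 22.5 per kilobase. Fgb, Apoa1 and Ttr were picked out after their values were seen. Alb itself was listed at a log2 fold change of -1.61 ± 0.80 there (Wald test adjusted p of 0.17), and of the 17 tested hepatocyte markers 1 was called, Hpx, the hemopexin gene, at -2.32 ± 0.70 with a mean count of 11.8, against 10.4% of all genes called. With the running median of genes of like level subtracted, Alb was at -0.40, and Hpx was at -1.12 and lost its call (adjusted p of 0.45). Rbp4, which encodes the plasma carrier of retinol, was the 1 hepatocyte marker with a level above that of Apob, at 662.8 per kilobase. Gc, the vitamin D-binding protein gene, and Ambp, which encodes alpha-1-microglobulin and bikunin, followed at levels of 69.9 and 34.9 per kilobase.

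Intestinal cells also make apolipoprotein B, and their markers were therefore set beside it. The level of Vil1, the gene of the microvillus protein villin, was 213.8 per kilobase in KPC, and that of the retinol-binding protein gene Rbp2 was 78.7. The other enterocyte markers with a row were at a level of 13.7 per kilobase or less, as the plot of levels per length shows. Epithelial tumour markers stood far higher, with 5 of 6 at a level above that of Apob and a median of 2642.3 per kilobase. Between the KPC LM2 and KPC groups Apob was not called: the authors' deposited table listed a log2 fold change of -0.13 ± 0.32, with a Wald test adjusted p of 0.81 and a 95% interval from -0.75 to 0.49. Fewer cells of a type and less RNA per cell cannot be told apart in such bulk samples, here and in all results below.

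**Figure D1:**
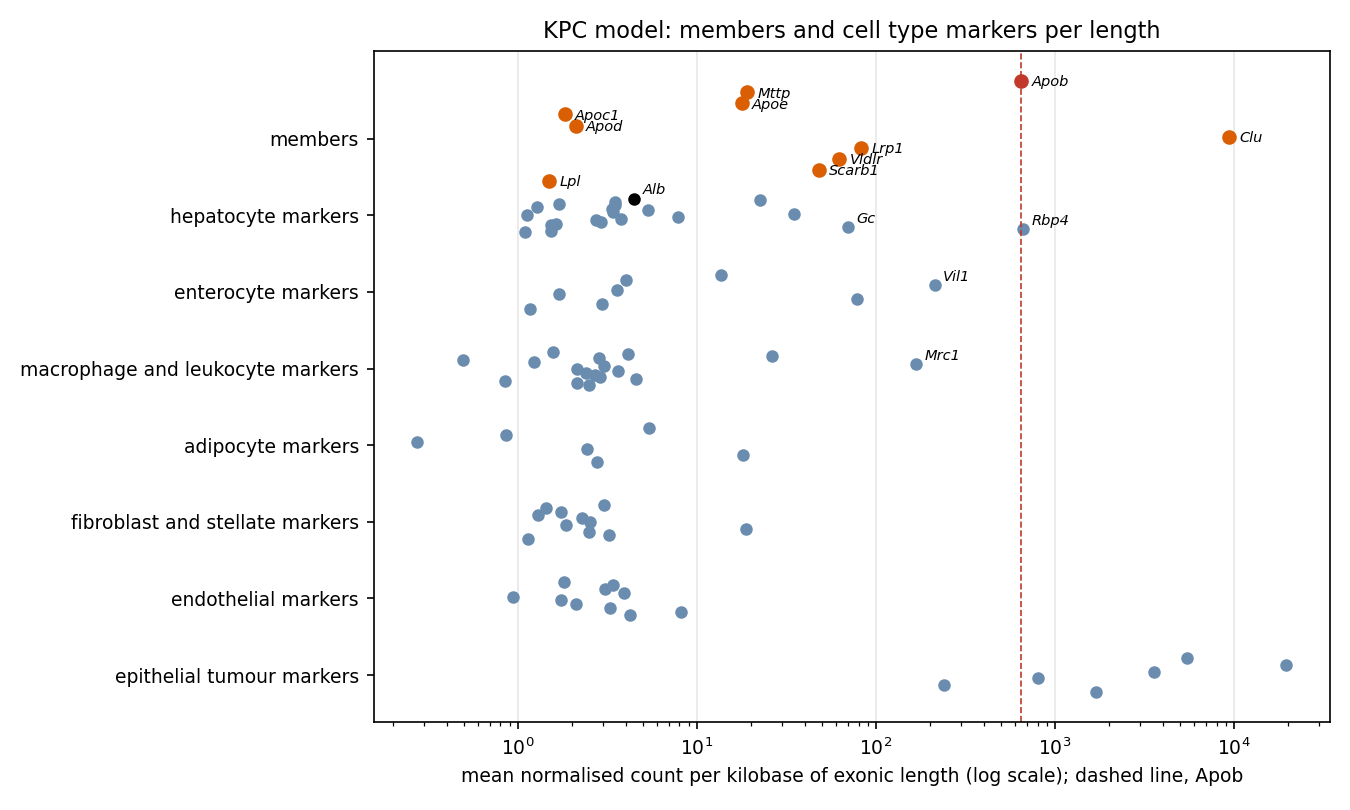
Levels in the KPC model as mean normalised counts per kilobase of exonic length on a log axis, 1 point per gene, for the members and for 7 lists of cell type markers. The dashed line marks Apob at 646.5, with Alb at 4.46, Rbp4 at 662.8 and 5 of the 6 epithelial tumour markers to the right of the line.

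The promoters of Apob and Alb are shown because these genes, both typical of hepatocytes, lay so far apart in level in the same libraries. Each window is the 250 bases before the start of the gene on the plus strand, from RefSeq on GRCm38.p6, another build than the mm39 the submitters' processing notes name: chr12:7977427-7977676 for Apob and chr5:90460620-90460869 for Alb. Capitals mark matches, on either strand, to the TATA box letters TATAAA, the CCAAT box letters CCAAT, and GTTAAT, a core motif of the liver-enriched factor HNF1; no matches overlapped.
Apob: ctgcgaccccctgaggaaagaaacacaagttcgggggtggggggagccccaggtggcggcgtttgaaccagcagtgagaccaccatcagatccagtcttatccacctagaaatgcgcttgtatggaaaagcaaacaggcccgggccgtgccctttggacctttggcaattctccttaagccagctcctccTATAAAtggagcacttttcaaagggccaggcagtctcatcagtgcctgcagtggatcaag
Alb: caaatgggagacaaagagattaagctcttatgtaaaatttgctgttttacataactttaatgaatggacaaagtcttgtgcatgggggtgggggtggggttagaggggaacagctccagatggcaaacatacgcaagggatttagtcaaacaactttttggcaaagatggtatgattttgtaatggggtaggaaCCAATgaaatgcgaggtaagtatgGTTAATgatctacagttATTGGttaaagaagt
The Apob window held 1 match to TATAAA and none to the other motifs. The Alb window held 2 matches to CCAAT, 1 to GTTAAT and none to TATAAA. Both windows end where RefSeq places the gene start, and bases past that point were not searched. Among 27018 mouse promoter windows of this length, 13.0% held TATAAA, 34.5% held CCAAT and 6.52% held GTTAAT. A match of letters is a description, and no factor was measured here.

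Mttp, whose product is needed to secrete apolipoprotein B, was present in KPC at a much lower level than Apob, 19.1 against 646.5 per kilobase. In the authors' deposited table its mean count was 118.4, and its log2 fold change was 0.26 ± 0.25 (Wald test adjusted p of 0.50), or 0.04 after recentring, which subtracted the median of the genes with a mean count of 64 or more (0.22 in KPC and -0.03 in PANC1). In the GENCODE M21 annotation 7.36% of the exonic bases of Mttp are shared with Trmt10a on the opposite strand. Trmt10a had a mean count of 237.4 in the authors' deposited table, and the counting is not stated to use strand, so reads of the 2 genes there cannot be told apart. For the assembly genes PANC1 gave little: MTTP had a mean count of 0.676 in the authors' deposited table, with no adjusted p listed, and APOB had no row, which gives no level. ALB had no row in PANC1 either, so the ratio of the levels of APOB and ALB could not be formed there.

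Clu was the most abundant member in the KPC samples. In the authors' deposited table it had a mean count of 32205.7, rank 7 of 23201 genes, and per kilobase its level of 9370.3 ranked 18 among the 22150 genes with an exonic length. Its log2 fold change in KPC was -0.27 ± 0.22 in the authors' deposited table, with a Wald test adjusted p of 0.41. Clusterin is a secreted chaperone as well as an apolipoprotein. In PANC1 the authors' deposited table listed CLU at a mean count of 4210.2 with a log2 fold change of -1.57 ± 0.07, a 2.97-fold difference between the groups (Wald test adjusted p of 4.7e-97). The 2 tables were normalised separately and come from 2 species, so the levels of CLU in them are not compared.

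**Figure D2:**
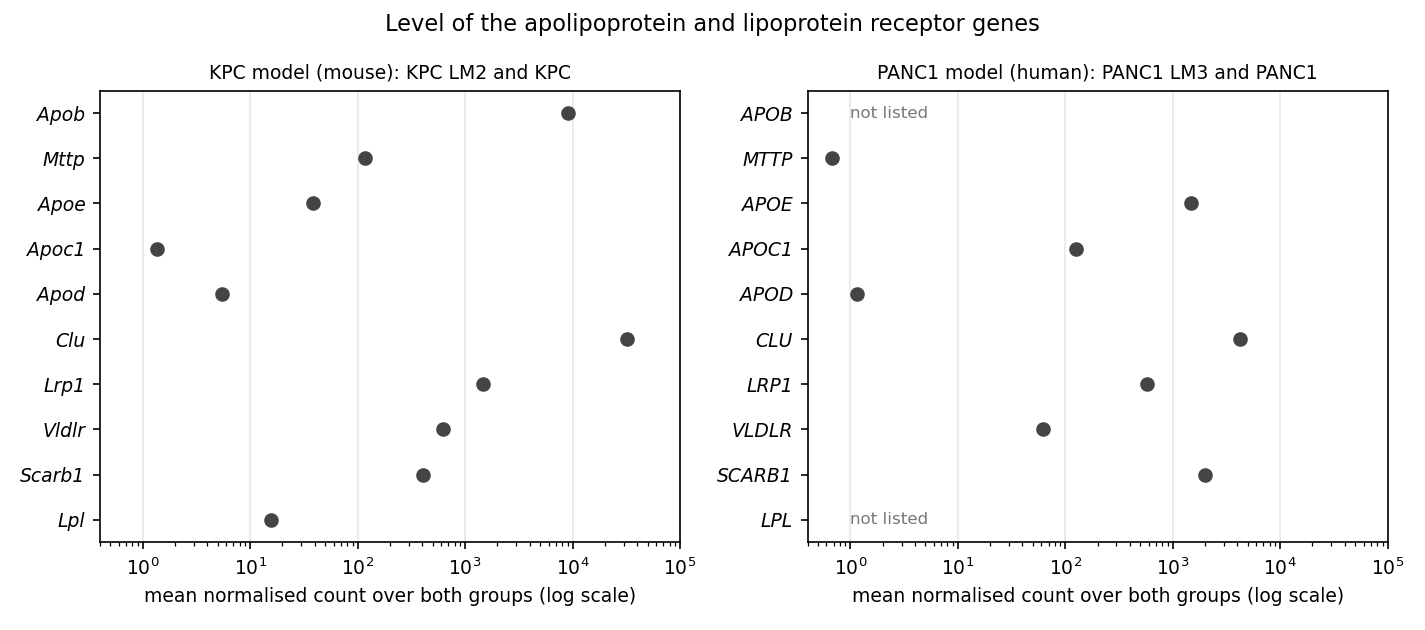
Mean normalised count over both groups of a model on a log axis, 1 point per member, in the KPC table (left) and the PANC1 table (right). Clu and Apob lie at 32205.7 and 9008.6 in KPC, and APOB and LPL are not listed in PANC1. Counts are not divided by length here, so only 1 gene at a time should be read.

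The apolipoproteins that exchange between particles had no call in KPC and were called in PANC1, and the difference between the models was not tested. Apoe had a mean count of 38.1 in KPC and a log2 fold change of 0.12 ± 0.39, which became -0.10 on recentring, in the authors' deposited table (Wald test adjusted p of 0.85). Apoc1 was at 1.36 in KPC, with a listed log2 fold change of -1.99 ± 1.93 and no adjusted p in the authors' deposited table. In PANC1 the authors' deposited table gave APOE a mean count of 1481.1 and a log2 fold change of -1.21 ± 0.17, a 2.31-fold difference (Wald test adjusted p of 1.2e-11). APOC1 had the same sign in PANC1, at -0.97 ± 0.17 with a mean count of 125.7 and a Wald test adjusted p of 7.6e-08 in the authors' deposited table. APOE and APOC1 are neighbours in the genome, and their 95% intervals in PANC1, from -1.54 to -0.87 and from -1.31 to -0.63, overlap.

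Macrophages are a known source of apolipoproteins E and C1, so their markers are given beside these genes. The PANC1 table holds human genes and the species of the host is not given in the sources used here, so in PANC1 neither these nor other cell type markers can gauge host cells of another species. In PANC1, 6 of 20 macrophage and leukocyte markers had a row, with a summed mean count of 1120.7 in the authors' deposited table, nearly all of it from CD68. CD68, which encodes a lysosomal membrane protein, stood at 1103.2 with a log2 fold change of 1.91 ± 0.07, opposite in sign to APOE and APOC1, in the authors' deposited table (Wald test adjusted p of 6e-152). CSF1R and FCER1G, of myeloid cells, were at 8.85 and 4.84, and PTPRC, the pan-leukocyte gene CD45, singled out after its value was seen, was at 2.26 in the authors' deposited table. C1QA, C1QB, C1QC, CD163 and LYZ had no row in PANC1. In KPC 17 of the 20 markers had a row, with a median mean count of 5.26. Of these, Mrc1, the mannose receptor gene, stood apart at 1072.9 in the authors' deposited table, which had Cd68 at 33.1 and Ptprc at 28.9. The 1 call among 13 tested markers in KPC was Adgre1, the macrophage gene F4/80, at -2.88 ± 0.75 with a mean count of 13.4 in the authors' deposited table, against 10.4% of all genes called. With the running median subtracted Adgre1 was at -1.86 and lost its call (adjusted p of 0.14). The part of such cells in the values of Apoe and Apoc1 was not tested in either model.

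APOD was near the detection floor in both models. The authors' deposited table for KPC gave Apod a mean count of 5.44 and a log2 fold change of -1.95 ± 0.99, with an unadjusted p of 0.048 and a Wald test adjusted p of 0.18. In KPC low genes as a group had negative values: the 7258 tested genes with a mean count under 16 had a median log2 fold change of -1.43, and the 9767 tested genes at 64 or more had a median of 0.22. The running median over genes of like level was -1.61 at Apod, which left -0.34 of its log2 fold change. In PANC1 APOD was at a mean count of 1.15 and a log2 fold change of 1.72 ± 1.75 in the authors' deposited table (Wald test adjusted p of 0.43). The lipoprotein lipase gene Lpl was also low in KPC, with a mean count of 15.6 and a log2 fold change of 0.20 ± 0.57 in the authors' deposited table (Wald test adjusted p of 0.83). Its sign was not settled, since the value was -0.02 on recentring and 1.15 after the running median was subtracted. Adipocytes make large amounts of lipoprotein lipase. Their 6 markers had mean counts in KPC from 1.27 to 33.8, the highest being Cidec, a lipid droplet gene.

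The 3 receptors were expressed in both models, and in PANC1 they differed in sign. SCARB1, which encodes the HDL receptor SR-BI, had the largest absolute Wald statistic of all members in PANC1, -32.77. The authors' deposited table listed it at a mean count of 2013.4 and a log2 fold change of -2.18 ± 0.07, a 4.53-fold difference between the groups (Wald test adjusted p of 6.8e-233). LRP1, a receptor for apolipoprotein E-rich remnants and many other ligands, was positive at 0.74 ± 0.10 with a mean count of 578.4 in the authors' deposited table for PANC1 (Wald test adjusted p of 8.8e-12). VLDLR, a receptor of triglyceride-rich particles and of reelin, was positive at 0.65 ± 0.23 with a mean count of 62.3 in the authors' deposited table (Wald test adjusted p of 0.0095). The call of VLDLR was lost when the running median over level was subtracted, at 0.49 and an adjusted p of 0.062. In PANC1, LRP1 and VLDLR thus lay on the side opposite to SCARB1, CLU, APOE and APOC1, whichever group is the numerator. Epithelial tumour markers also differed in PANC1, with 1 of 6 called positive and 4 negative, against 26.0% and 26.5% of all genes. KRT8 and CDH1, of simple epithelia and their junctions, had log2 fold changes of -4.35 ± 0.06 and -3.92 ± 0.10 by the authors' deposited table. EPCAM was the positive one there at 0.97 ± 0.10, and KRT7 was not called at 0.09 ± 0.26. The part of these markers in the members' values was not tested.

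In KPC none of the receptors was called. The authors' deposited table listed Lrp1 at 0.86 ± 0.33 with a mean count of 1457.9, an unadjusted p of 0.01 and a Wald test adjusted p of 0.075. Recentring moved Lrp1 to 0.64, with an adjusted p of 0.19. Scarb1 was listed at 0.44 ± 0.21 with a mean count of 408.2 in the authors' deposited table, and its value was 0.22 on recentring (Wald test adjusted p of 0.16 before it and 0.52 after it). Vldlr was at -0.20 ± 0.24 with a mean count of 626.2 in the authors' deposited table (Wald test adjusted p of 0.60). Per kilobase of exonic length the levels of Lrp1, Vldlr and Scarb1 in KPC were 82.3, 62.2 and 48.0, which puts all 3 between Apob and Mttp. On coding length they were also between these genes but in the reverse order, at 106.9, 238.8 and 266.8.

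**Figure D3:**
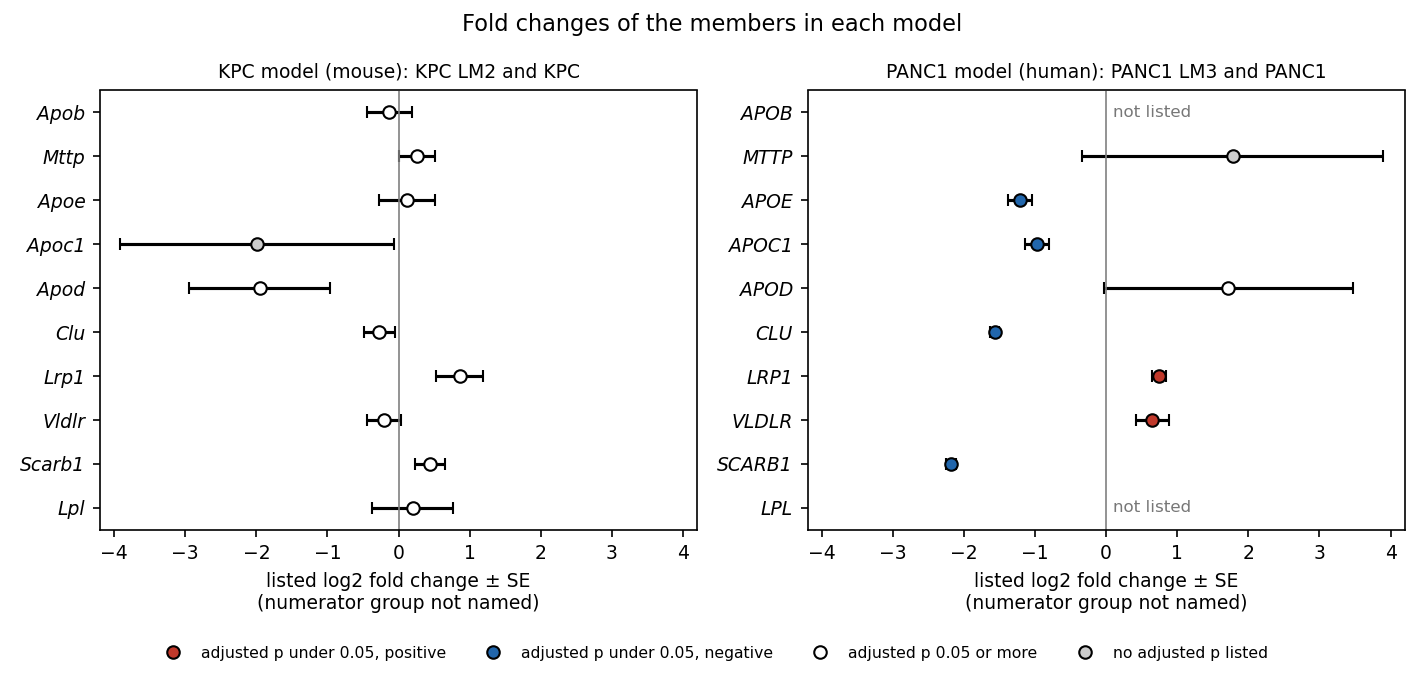
Log2 fold change with its SE for each member in the KPC table (left) and the PANC1 table (right), as listed by the authors, with the numerator group not named. Filled red and blue points have an adjusted p under 0.05: none in KPC, and in PANC1 LRP1 and VLDLR positive with APOE, APOC1, CLU and SCARB1 negative. Apoe and Lpl in KPC turn negative when recentred.

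Counted over the members, an adjusted p was listed for 9 of 10 genes in KPC and for 7 of 8 in PANC1, without Apoc1 and MTTP, both low. In KPC 0 of the 9 were called by the authors' Wald test and 3 had an unadjusted p under 0.05 (Lrp1, Scarb1 and Apod), against 10.4% of 20050 genes called and 24.8% with such an unadjusted p. All 6 members at a mean count of 64 or more were among the uncalled, against 12.7% of such genes called, and none passed with an absolute log2 fold change over 1 as well, against 6.50%. In PANC1 6 of the 7 were called, 2 positive and 4 negative, against 52.5% of 17838 genes called, 26.0% positive and 26.5% negative. An unadjusted p under 0.05 was listed for 6 of 8 members in PANC1, against 55.3% of all genes, and 5 of 5 members at 64 or more were called, against 69.3% of such genes. With an absolute log2 fold change over 1 required as well, the 3 left were SCARB1, CLU and APOE, against 15.5% of all genes. The median log2 fold change of the members tested was 0.12 in KPC, against -0.08 over all tested genes, and -0.97 in PANC1, against 0.00 over all tested genes. Since the members were picked with these values known, nothing is read from the counts. The median listed SE over genes at 64 or more was 0.24 in KPC and 0.09 in PANC1, so the errors in KPC were the larger ones.

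**Figure D4:**
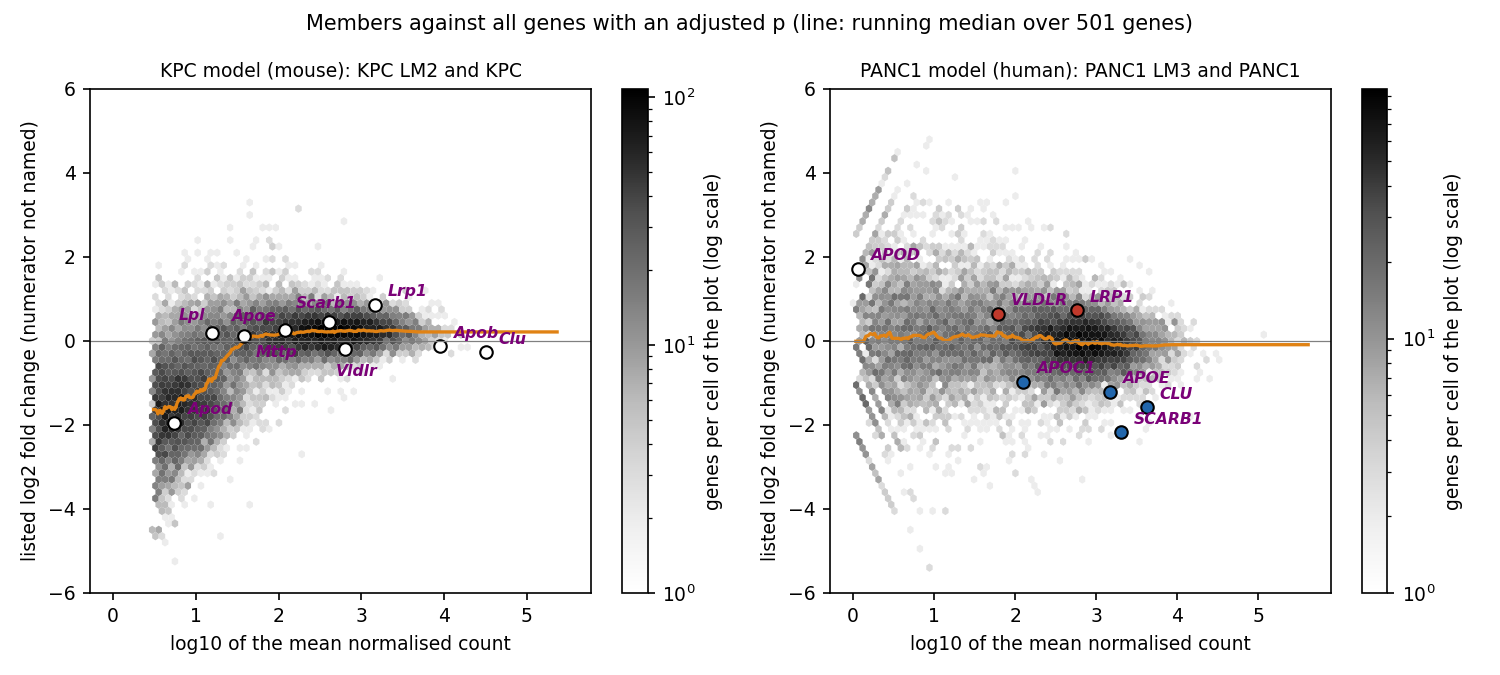
Listed log2 fold change (numerator not named) against the log10 of the mean count for all genes with an adjusted p, shaded by number of genes, with the members as points coloured as called positive (red), called negative (blue) or not called (white). The orange line is the running median over genes of like level, which is -1.61 at Apod and 0.21 at Apob in KPC. The sign of Apoe and Lpl in KPC depends on centring.

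The wider set of lipoprotein genes, 78 in 6 lists, had 11 of 67 tested genes called in KPC, 6 positive and 5 negative, against 5.77% and 4.60% of all genes. Its median log2 fold change of -0.08 equalled that of all tested genes to 2 decimals. With the running median over level subtracted 5 were called, 2 positive and 3 negative, against 584 and 549 of all 20050 tested genes. Among other apolipoproteins the 1 call of 10 tested in KPC was Apobr, which encodes a receptor for apolipoprotein B48-bearing particles. The authors' deposited table listed Apobr at 3.15 ± 0.33 with a mean count of 160.5 (Wald test adjusted p of 5.9e-19). Apool and Apoo, whose products belong to a mitochondrial inner membrane complex in spite of their names, were listed without a call by the authors' deposited table, at 0.42 ± 0.34 and 0.53 ± 0.67. The list's median was -1.02, or 0.30 with the running median subtracted, and it held mostly low genes: Apoa1, Apoa2, Apoa4, Apoa5 and Apoc2, typical of liver and intestine and named after their values were seen, had mean counts from 2.39 to 4.17.

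Among the LDL receptor family and its adaptors in KPC, 1 of 18 tested genes was called positive and 3 negative, against 5.77% and 4.60% of all genes. The list's median of 0.18 turned to -0.04 on recentring and to -0.07 with the running median subtracted. Lrp2, the megalin gene, was at -2.45 ± 0.35 with a mean count of 122.7 in the authors' deposited table (Wald test adjusted p of 1.2e-09). Lrpap1, the chaperone that keeps LRP1 and its relatives free of ligand during transport, was at 1.11 ± 0.24 in the authors' deposited table (Wald test adjusted p of 0.0002). The sorting receptor gene Sorl1 and the agrin receptor gene Lrp4 had log2 fold changes of -1.60 ± 0.51 and -1.55 ± 0.55 and low mean counts, 27.4 and 29.5, by the authors' deposited table. Both of these calls were lost after the running median was subtracted, with adjusted p-values of 0.083 and 0.12.

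The other 6 KPC calls came from 4 of the lists. Angptl4, the inhibitor of lipoprotein lipase, was at -1.25 ± 0.21 with a mean count of 614.0 in the authors' deposited table (Wald test adjusted p of 6.6e-07). The cholesterol efflux transporter gene Abcg1 was at -3.17 ± 0.66, but with a mean count of only 16.6, in the authors' deposited table (Wald test adjusted p of 0.00012). Lipa, the lysosomal acid lipase gene, and Npc1, which moves cholesterol out of lysosomes, had values of 0.80 ± 0.25 and 0.81 ± 0.25 by the authors' deposited table. Scarb2, a lysosomal membrane protein of the SCARB1 family, was at 1.07 ± 0.29, and Mia3, a cargo receptor for bulky proteins leaving the endoplasmic reticulum, at 0.60 ± 0.18 in the authors' deposited table. Recentring took the calls of Lipa, Npc1 and Mia3, with adjusted p-values of 0.11, 0.098 and 0.14, and subtraction of the running median took that of Scarb2 as well, at 0.062.

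In PANC1 38 of 63 tested genes of these lists were called, 13 positive and 25 negative, against 52.5% of all genes, with a median of -0.11. Among list genes at a mean count of 64 or more, 35 of 50 were called, against 69.3% of all genes at that level. Lipases and their regulators had 0 positive and 5 negative calls of 10, against 26.0% and 26.5% of all genes, with a median of -0.22. GPIHBP1, the endothelial anchor of lipoprotein lipase, was at -3.77 ± 0.24, the lysosomal acid lipase gene LIPA at -2.09 ± 0.07 and the endothelial lipase gene LIPG at -1.97 ± 0.07 in the authors' deposited table. Their Wald test adjusted p-values were 1.4e-53, 2.4e-178 and 2.1e-158. LMF1, a maturation factor of lipoprotein lipase, was at -0.90 ± 0.13, while ANGPTL4 was at 0.07 ± 0.09 without a call, in the authors' deposited table. Endothelial cells are a known source of GPIHBP1, and 6 of 10 endothelial markers had a row in PANC1. Their mean counts ran from 0.985 to 370.3, the highest being EGFL7, which was not called at -0.18 ± 0.22. Of the 5 tested, 1 was called positive and 1 negative, against 26.0% and 26.5% of all genes. CDH5 (VE-cadherin) was at 9.89 with a log2 fold change of -4.09 ± 0.95 in the authors' deposited table (Wald test adjusted p of 5.8e-05). ESAM went the other way there, at 33.6 with 1.49 ± 0.32 (Wald test adjusted p of 1.1e-05). The part of endothelial cells in the value of GPIHBP1 was not tested.

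The LDL receptor family and its adaptors had 4 positive and 10 negative calls of 17 in PANC1, against 26.0% and 26.5% of all genes, with a median of -0.37. All 17 were at a mean count of 64 or more, where 69.3% of all genes were called. DAB2, an endocytic adaptor of these receptors, was at 2.12 ± 0.15 and LRP1B at 1.20 ± 0.20 on the positive side, in the authors' deposited table. On the negative side LRPAP1 was at -0.59 ± 0.07 and the reelin receptor gene LRP8 at -0.74 ± 0.10 in the authors' deposited table. Assembly and secretion partners had 2 positive and 5 negative calls of 12, against 26.0% and 26.5% of all genes, or 4 and 5 with the running median subtracted. P4HB, the protein disulfide isomerase that is also the small subunit of the MTTP complex, was at -0.69 ± 0.05, and SAR1A, a coat GTPase of the secretory pathway, at -0.87 ± 0.06 in the authors' deposited table. PLTP, the phospholipid transfer protein gene, was at 1.65 ± 0.10 with a mean count of 460.3 in the authors' deposited table (Wald test adjusted p of 1.8e-55).

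Efflux and HDL genes had 4 positive and 1 negative call of 9 in PANC1, against 26.0% and 26.5% of all genes, with a median of 0.14. ABCA1, which loads cholesterol onto nascent HDL, was at 0.98 ± 0.08 with a mean count of 629.1, and ABCG1 at 0.67 ± 0.26, in the authors' deposited table. With the running median subtracted 2 positive calls were left, since ABCG1 (adjusted p of 0.063) and LCAT, the gene of the enzyme that esterifies cholesterol in plasma (adjusted p of 0.12), lost theirs. Among scavenger and HDL receptors 1 of 7 was positive and 2 were negative, against the same 26.0% and 26.5% of all genes. PDZK1, the scaffold that holds SCARB1 at the plasma membrane of hepatocytes, was at -1.89 ± 0.39, of the same sign as SCARB1, in the authors' deposited table. Among other apolipoproteins 2 of 8 were positive and 2 negative, against the same 26.0% and 26.5% of all genes. The negative ones were APOL1 at -1.12 ± 0.17 and APOL6 at -0.61 ± 0.07 in the authors' deposited table. Hepatocyte markers had 11 of 27 rows in PANC1, with a summed mean count of 253.1, of which CPS1, the entry enzyme of the urea cycle, held 131.6.

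**Figure D5:**
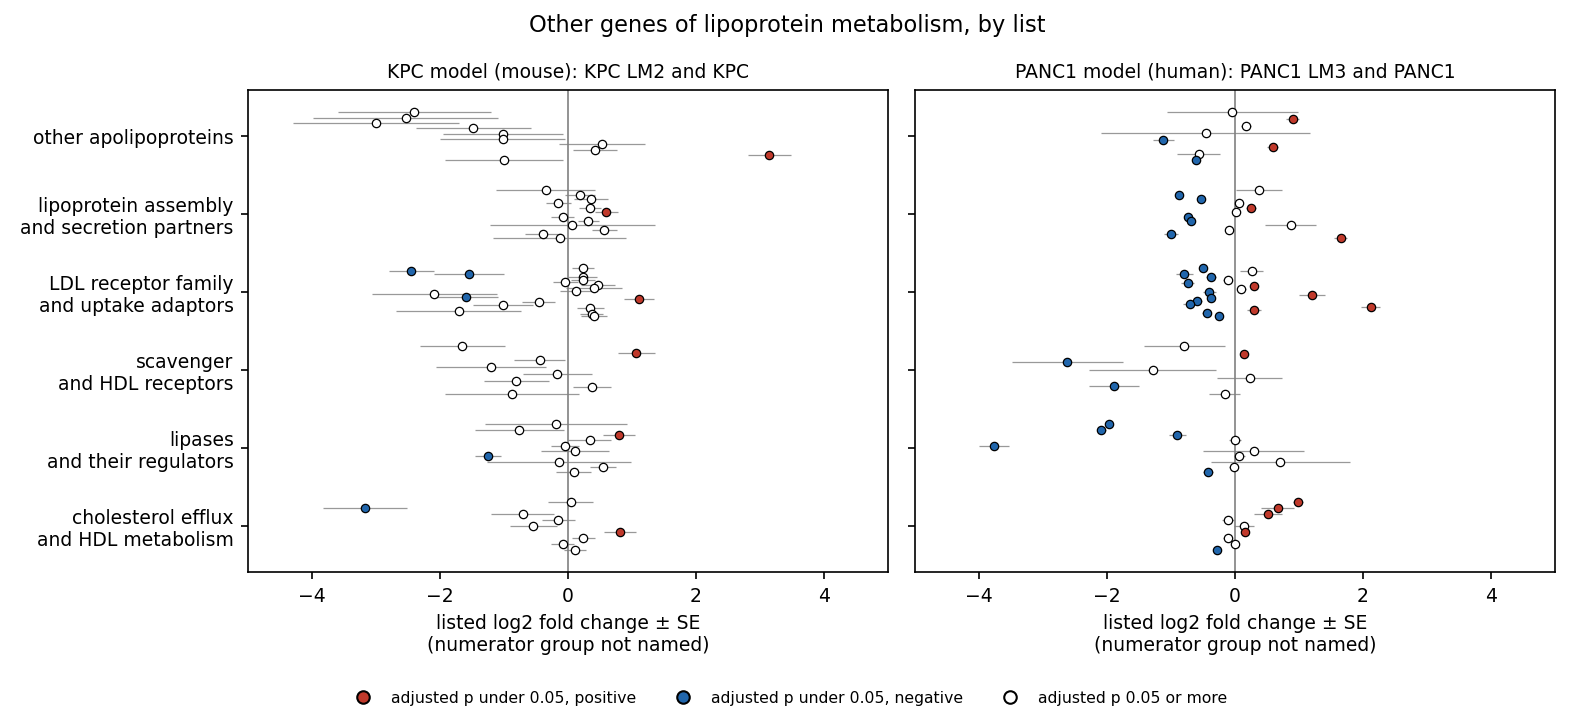
Log2 fold change with its SE as listed by the authors, numerator not named, for the tested genes of 6 lists of lipoprotein metabolism in KPC (left) and PANC1 (right), 1 point per gene. Red and blue points have an adjusted p under 0.05, 6 and 5 of 67 in KPC and 13 and 25 of 63 in PANC1, and GPIHBP1 is the point farthest to the left in PANC1.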

How the data were processed

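RNA was measured in 12 samples of 4 groups, grouped by their titles. Libraries were made with a TruSeq kit, per the labels' protocols. The submitters' processing notes name DESeq2 1.24, featureCounts 2.0.0, STAR 2.7.6a and MultiQC 1.9, with mm39 and hg19 as builds; settings, annotation and strand handling are not given in the sources used here. The authors deposited 1 comparison table per model. The mean normalised count is a signal the authors computed over libraries, per the file headers, which do not define it. Fold changes and standard errors are log2 values that the authors deposited. The deposited score, a Wald statistic, equalled the fold change over its standard error within 9.2e-08, and the deposited p-values equalled its two-sided normal p within 5e-08. A Benjamini-Hochberg adjustment of them returned the deposited adjusted p-values within 2.5e-06, over 20050 KPC and 17838 PANC1 genes, down to mean normalised counts of 3.08 and 1.08. A signed negative log10 of the p was not used. The depth of each library is unknown. Replicates are labelled biological; whether they are separate animals is not stated.

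The count test foreseen for values per library could not be run. Members and lists were chosen with earlier results of these data known. Genes named were all members and ALB; up to 4 called genes per direction and the 3 highest uncalled genes of each pathway list; and the 3 highest and all called markers of each cell type, of which some are not reported here. Exonic length is the union of exons in GENCODE M21 (GRCm38), matched by symbol for 22150 of 23201 KPC genes (95.5%); no human annotation was used. Promoters were matched for 6 of 10 members. Motifs were searched on both strands. As alternatives, the adjusted p had to be under 0.01, or the absolute log2 value had to exceed 1 too, or every gene with a p was adjusted together; others kept genes whose mean count was at least 64, recentred on the median of these, or subtracted a running median of genes of like level. Steps were tested on simulated data. Figures were drawn with matplotlib 3.10.9, and values computed with scipy 1.17.1, pandas 2.3.3 and numpy 2.4.6 in Python 3.11.15.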

Additional observations from a re-analysis of the deposited data

How the results depend on the processing

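No paired analysis was possible because the tables hold no value per library, and for that reason the replicate block and leaving out each replicate were not run. The ratio of the levels of APOB and ALB in PANC1 could not be formed. In KPC 0 members were called under each of the 6 alternatives. In PANC1 the count of members called was 5 to 6, except with an absolute log2 fold change over 1, where it was 3. Of the lists of lipoprotein genes, 11 calls of 67 in KPC became 6 at an adjusted p of 0.01, for which no share over all genes is given. The 11 became 5 after the running median was subtracted, where the calls over all KPC genes fell too, as given below. In PANC1 38 calls of 63 became 9 with an absolute log2 fold change over 1, against 52.5% and 15.5% of all genes. The positive and negative calls of these lists in KPC, 6 and 5, were 8 and 2 among genes at 64 or more and 3 and 6 after recentring. Over all KPC genes, 1157 positive and 922 negative calls became 506 and 1643 on recentring and 584 and 549 with the running median subtracted. The level of Apob over that of Alb was 145.0 per exonic length, 116.6 per coding length and 862.8 with no length. The first change comes from the exonic bases that the coding length leaves out, and the second from the greater length of Apob.

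Among the genes named by the rule given above, signs that turned were all of genes without a call, and the cause was not tested. On recentring, log2 fold changes in KPC became -0.10 for Apoe, -0.02 for Lpl, -0.13 for Furin, -0.11 for Hdlbp, -0.05 for Vil1 and -0.20 for Krt8. With the running median subtracted they were 0.39 for Apol6, -0.02 for Lrp5, -0.15 for Furin, -0.11 for Hdlbp, -0.07 for Vil1, 0.26 for Lep, 0.26 for Adipoq and -0.20 for Krt8. In PANC1 they were 0.01 for SEL1L, 0.03 for LMF2 and 0.03 for SOAT1 on recentring, and 0.09 for SEL1L and 0.07 for SOAT1 with the running median subtracted. Signs of genes outside that rule turned as well, among them Fgb in KPC (0.06) and KRT7 in PANC1 (-0.03) with the running median subtracted. The depth behind each value is unknown, and values for genes with a mean normalised count under 64 carry wide standard errors.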

Other observations

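The neighbours of APOE and APOC1 were read from the RefSeq order of protein-coding genes on GRCm38.p6, a choice made after seeing the data. In PANC1 the authors' deposited table listed TOMM40 and NECTIN2 on one side of the pair at -0.32 ± 0.07 and -0.27 ± 0.06, and CLPTM1 on the other side at -0.43 ± 0.07. Each of these log2 fold changes had the sign of APOE (-1.21 ± 0.17) and APOC1 (-0.97 ± 0.17) and a smaller size. Farther out in the mouse order, BCAM and CBLC were positive at 0.88 ± 0.17 and 3.05 ± 0.31 in the authors' deposited table for PANC1. All 5 of these neighbours were called by the Wald test there, against 52.5% of all genes. Except for CBLC, at a mean count of 53.4, they were at 64 or more, where 69.3% of genes were called. In KPC Bcam was at -0.74 ± 0.25 with an adjusted p of 0.037, and Tomm40, Nectin2, Clptm1 and Cblc were not called in the authors' deposited table. Apoc2, which lies between Clptm1 and Apoc1 in the mouse order, had a mean normalised count of 3.84 in KPC and no row in PANC1. Gm44805 and Apoc4, which lie there too, had no row in either model.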
